A study of Arabidopsis thaliana with 27 samples.

Results

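The data describe 6 drought-responsive genes of Arabidopsis thaliana in whole seedlings grown on NaCl or on sorbitol. The genes are TSPO (AT2G47770), AT1G16850, AT2G37870, STMP6 (AT1G65500), RD22 (AT5G25610) and RD20 (AT2G33380), the last also known as CLO-3. They were chosen by locus tag as drought genes outside the late embryogenesis abundant family, several of them selected on the size of their rise on sorbitol over the control in these arrays, and they are 6 of 25383 genes with a probe and 6 of the 21511 genes tested. All 6 had a probe and passed the filter on dim probes. The wild-type Col-0 seedlings were 2 weeks old in every group, and the treated ones were sown on the treatment medium, so exposure lasted the whole 2 weeks. There were 4 groups on NaCl, 4 on sorbitol, and untreated control seedlings on the same ATS nutrient medium with neither added. The doses form iso-osmolar pairs, with 50 mM NaCl matched to 100 mM sorbitol, 75 to 150 mM, 100 to 200 mM and 125 to 250 mM. Each of the 9 groups was measured on 3 single-colour arrays, 27 in all.

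Salt in the medium lowers the water potential around the root and also loads the tissue with ions, whereas sorbitol, a sugar alcohol, lowers the water potential without added ions. Loss of water raises the hormone abscisic acid (ABA), which binds receptors of the PYR/PYL family, and the bound receptors block clade A protein phosphatases (PP2Cs) and so free SnRK2 kinases to activate transcription factors of the ABF and ABI5 family. The 6 genes are known from this setting by different products. TSPO encodes a heme-binding membrane protein of the secretory pathway that is made under ABA and binds the aquaporin PIP2;7. AT1G16850 encodes an uncharacterised transmembrane protein, AT2G37870 a protein of the lipid transfer protein superfamily, STMP6 a small secreted peptide with a transmembrane segment, RD22 a secreted BURP domain protein used as a marker of ABA and drought responses, and RD20 a caleosin, a calcium-binding protein of lipid droplets.

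A value below is the quantile-normalised processed signal of a gene's brightest probe, in arbitrary units that can be compared between arrays but not between genes. The arrays lay on 7 slides, called A to G here. Controls, NaCl 50, 75 and 100 mM lay on slides A, B and C, NaCl 125 mM and sorbitol 100, 150 and 200 mM on slides D, E and F, and sorbitol 250 mM alone on slide G. Between 70.1% and 80.8% of the spots on an array were well above background, and the median SD of a gene between the 3 arrays of a group lay between 0.03 and 0.08 on the log2 scale, with the widest spread at sorbitol 150 and 200 mM. The labels do not say whether the arrays of a group came from separate plates, so p-values measure only the spread between these arrays, which may be technical. In RNA of whole seedlings a change in the share of cells that express a gene and a change in its RNA per cell cannot be told apart.

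All 6 genes were higher on both agents than in the control. For each gene, all 12 NaCl arrays and all 12 sorbitol arrays lay above all 3 control arrays. Averaged over the 4 doses and set against the control, the log2 rise on sorbitol was 5.98 for TSPO, 5.98 for AT2G37870, 3.42 for RD20, 2.82 for STMP6, 2.80 for AT1G16850 and 1.45 for RD22. The log2 rise on NaCl, averaged in the same way, was 3.50 for TSPO, 3.94 for AT2G37870, 2.95 for RD20, 2.01 for STMP6, 2.46 for AT1G16850 and 1.01 for RD22. These differences helped to choose the genes, so they are given without a test. Of all genes tested, 32.7% were called higher on mean sorbitol and 30.4% on mean NaCl by limma at an adjusted p under 0.01, and nothing is read from 6 of 6 against that. The controls share no slide with any sorbitol array, so slide and sorbitol cannot be told apart in these values. The size of the rises depended on how background was handled. With normexp correction the mean sorbitol rise was 3.80 for TSPO, 5.28 for AT2G37870, 2.68 for RD20 and 1.83 for STMP6, and the mean NaCl rise was 1.69 for TSPO, 3.29 for AT2G37870, 2.29 for RD20 and 1.19 for STMP6.

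By mean sorbitol rise among 21510 genes, TSPO ranked 2 and AT2G37870 ranked 3. Several of the 6 genes were chosen on the size of their rise on sorbitol, so the ranks are a description only. With normexp correction the order of TSPO and AT2G37870 turned, with 3.80 for TSPO and 5.28 for AT2G37870 (log2). The order also depended on the probe of TSPO. Its mean sorbitol rise was 5.48 with its other probe and 5.73 with the mean of its probes, both under the 5.98 of AT2G37870. LTI65, the ABA-induced gene also called RD29B, ranked 1 with a log2 rise of 6.38, and HSFA6A, a heat shock transcription factor, ranked 4 with 5.60. RD20 ranked 52, between MYB90, a regulator of anthocyanin synthesis, at 3.44 and AT4G11300 at 3.41. STMP6 ranked 96 and AT1G16850 ranked 97, between BG3, a beta-1,3-glucanase, at 2.82 and MPC at 2.80. RD22 ranked 498, between FBH3 at 1.45 and AT5G44572 at 1.45.

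**Figure D1:**
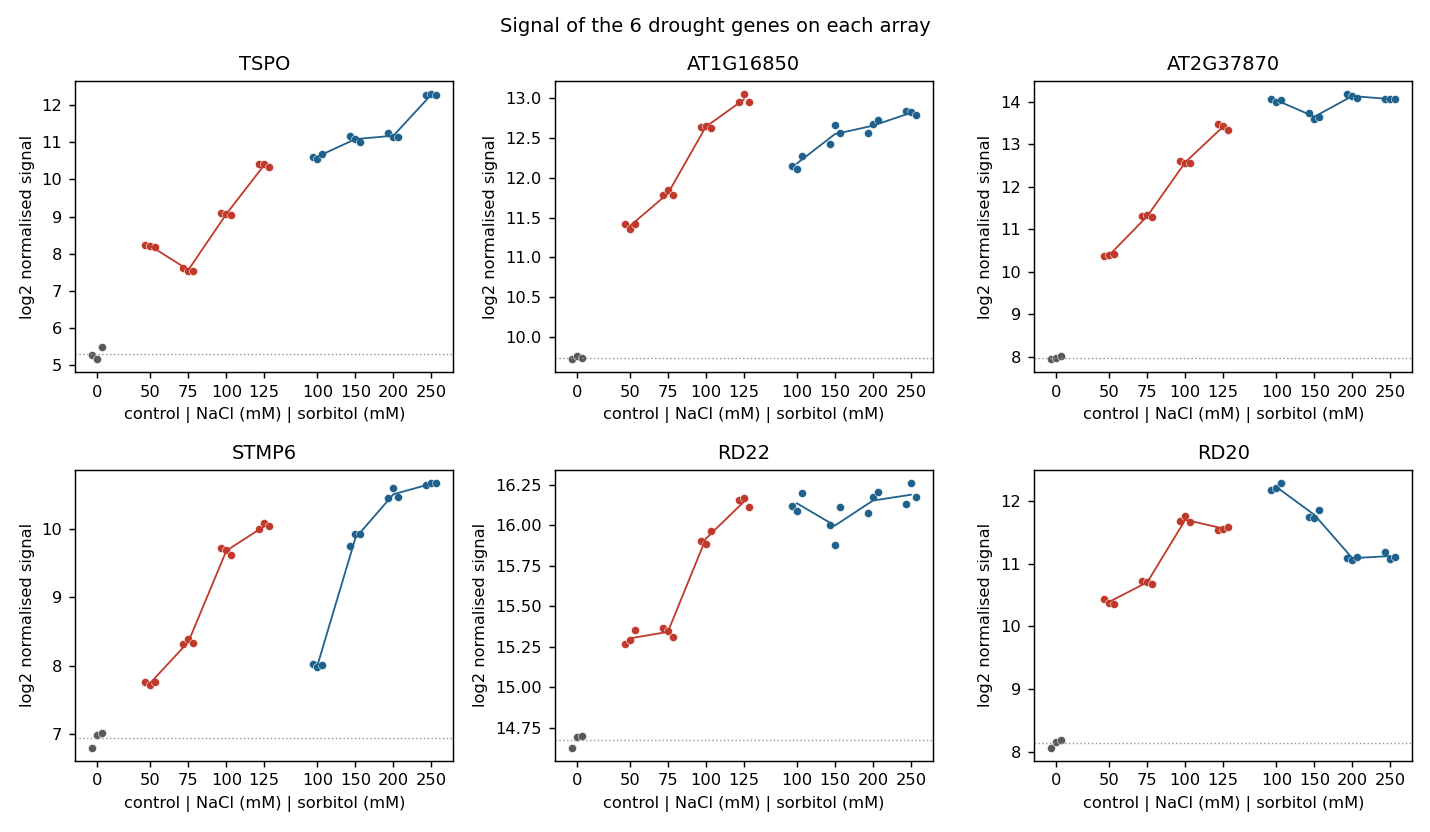
Log2 normalised signal of the 6 genes on each of the 27 arrays, by group (x axis: control, NaCl dose and sorbitol dose in mM). Points are arrays, lines join group means and the dotted line is the control mean; on NaCl all 6 genes were higher at 100 mM than at 50 mM, while on sorbitol RD20 was lower at 200 mM than at 100 mM and AT2G37870 and RD22 were already high at 100 mM.

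Of the membrane proteins, TSPO had the widest span. Its signal was 38.8, 36.0 and 44.6 on the control arrays, of which only 2 were well above background. On NaCl it was 300.5, 295 and 293 at 50 mM, 194, 187 and 186 at 75 mM, 545, 539 and 528 at 100 mM, and 1368, 1364 and 1300.5 at 125 mM. On sorbitol it was 1559.9, 1512 and 1638 at 100 mM, 2318, 2174 and 2050.2 at 150 mM, 2418, 2263 and 2276.5 at 200 mM, and 4974, 5028 and 4995 at 250 mM. Every sorbitol array was thus above every NaCl array, NaCl 75 mM was the lowest treated group, and only sorbitol 150 and 200 mM overlapped. AT1G16850 spanned less. Its 3 arrays gave 848, 869 and 857 in the control. On NaCl they gave 2732, 2612 and 2726 at 50 mM, 3511, 3685 and 3508 at 75 mM, 6385, 6435 and 6304 at 100 mM, and 7876, 8455 and 7903 at 125 mM. On sorbitol they gave 4534, 4419 and 4965 at 100 mM, 5464, 6464 and 6059.7 at 150 mM, 6055, 6523 and 6738 at 200 mM, and 7318, 7246.5 and 7039 at 250 mM. NaCl 125 mM was the highest group, and NaCl 100 mM overlapped sorbitol 150 and 200 mM.

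Among the secreted proteins, AT2G37870 separated the agents most clearly at low dose. It had 248.5, 253 and 261 on the control arrays. On NaCl it had 1336.5, 1350.0 and 1359 at 50 mM, 2544, 2575 and 2497 at 75 mM, 6211, 6052 and 6033 at 100 mM, and 11435, 10942.5 and 10388 at 125 mM. On sorbitol it had 17181, 16195 and 16865 at 100 mM, 13535, 12235 and 12664 at 150 mM, 18445, 17895 and 17453 at 200 mM, and 17063, 17047 and 17009.9 at 250 mM. The NaCl groups formed 4 separate steps in dose order, while sorbitol 100 and 250 mM overlapped, sorbitol 150 mM was the lowest sorbitol group, and no NaCl array reached a sorbitol array. STMP6 moved in steps on both agents. It had 112, 128 and 129.8 on the control arrays, and 218, 209.7 and 218 at NaCl 50 mM, 319, 337 and 321.5 at 75 mM, 846, 825 and 789 at 100 mM, and 1020.5, 1084 and 1049.7 at 125 mM. On sorbitol it had 260.3, 252 and 259 at 100 mM, 863, 967 and 971 at 150 mM, 1397.5, 1549 and 1415 at 200 mM, and 1598, 1628 and 1620.2 at 250 mM. No 2 of its 9 groups overlapped, and sorbitol 100 mM lay between NaCl 50 and 75 mM. RD22 was bright throughout, with its signal between the 93.1 and the 98.5 percentile of an array and no saturated spot. Its signal was 25284, 26468 and 26517 in the control, and between 39391 and 42256 over the 6 arrays of NaCl 50 and 75 mM. It lay between 60424 and 64104 at NaCl 100 mM, between 70949.8 and 73646 at NaCl 125 mM, and between 60341 and 78642 over the 12 sorbitol arrays. In order of level each sorbitol group overlapped the next, and NaCl 125 mM lay among them. The other, dimmer probe of RD22 gave another order, with its highest group mean at NaCl 125 mM (log2 signal 11.20). On that probe the sorbitol means were 11.08 at 100 mM, 10.82 at 150 mM, 10.91 at 200 mM and 10.98 at 250 mM. Its log2 rise over the control at NaCl 125 mM was 1.99, against 1.48 on the brighter probe.

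The lipid droplet protein RD20 had the opposite order on sorbitol. It gave 269, 285 and 291 on the control arrays. On NaCl it gave 1386, 1332 and 1319 at 50 mM, 1701, 1680.1 and 1629 at 75 mM, 3297, 3453 and 3236.5 at 100 mM, and 2985, 3005 and 3070.0 at 125 mM. On sorbitol it gave 4616, 4736.5 and 4996 at 100 mM, 3435, 3411 and 3703 at 150 mM, 2178, 2144 and 2208 at 200 mM, and 2318, 2165 and 2203 at 250 mM. Sorbitol 100 mM was the highest of all 9 groups, sorbitol 200 and 250 mM were the lowest sorbitol groups and overlapped, and NaCl 100 mM overlapped sorbitol 150 mM.

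Whether the genes follow dose was tested between doses of one agent, which uses no control array. A gene chosen for a large rise on sorbitol may owe its choice to a single dose, so the sorbitol tests are less independent of the choice than those on NaCl. From 50 to 100 mM NaCl all 6 genes were called higher at the higher dose (limma, adjusted p under 0.01), where 52.9% of all tested genes were called in either direction and 21.9% higher. The log2 difference, NaCl 100 minus 50 mM, was 2.18 ± 0.04 for AT2G37870 (SE, 3 arrays a group, as for the values that follow), 1.93 ± 0.05 for STMP6, 1.31 ± 0.04 for RD20, 1.25 ± 0.05 for AT1G16850, 0.86 ± 0.06 for TSPO and 0.62 ± 0.05 for RD22. The largest of the 6 adjusted p-values, that of RD22, was 7.75e-10. AT2G37870 ranked 88 and STMP6 ranked 125 from the top of all tested genes, and the smallest rise, that of RD22, ranked 1666. Slide A was the only slide that held both doses, with 1 array of each, and these arrays are part of the fit above. The difference between them was 2.22 for AT2G37870, 1.96 for STMP6, 1.25 for RD20, 1.22 for AT1G16850, 0.86 for TSPO and 0.64 for RD22. With normexp correction STMP6 had 1.33 in place of 1.93.

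From 100 to 200 mM sorbitol the genes divided. STMP6, TSPO and AT1G16850 were called higher, RD20 was called lower, and AT2G37870 and RD22 did not pass. Of all tested genes, 48.4% were called in either direction, 26.9% higher and 21.5% lower. The log2 difference, sorbitol 200 minus 100 mM, was 2.50 ± 0.05 for STMP6 (limma, adjusted p = 5.54e-19), 0.56 ± 0.06 for TSPO (adjusted p = 3.43e-08) and 0.47 ± 0.05 for AT1G16850 (adjusted p = 1.46e-07). RD20 fell by 1.14 ± 0.04 on the log2 scale (limma, adjusted p = 1.82e-15), to 0.455 times its level at 100 mM, and ranked 301 from the bottom of all tested genes. STMP6 ranked 52 from the top. AT2G37870 differed by 0.10 ± 0.04 (limma, adjusted p = 0.0215) and RD22 by 0.02 ± 0.05 (adjusted p = 0.788). AT2G37870 passed with slide as a random block (adjusted p = 0.00829), without sorbitol 150 mM replicate 1 (adjusted p = 0.00946) and without the 4 arrays of slide D (0.10, adjusted p = 0.00941). The other probe of RD22 was called lower, with a log2 difference of -0.17 and an adjusted p of 0.000809. Slide D held 1 array of each dose, and these arrays are part of the fit above. The difference between them was 2.42 for STMP6, 0.63 for TSPO, 0.42 for AT1G16850, 0.10 for AT2G37870, -0.05 for RD22 and -1.08 for RD20.

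**Figure D2:**
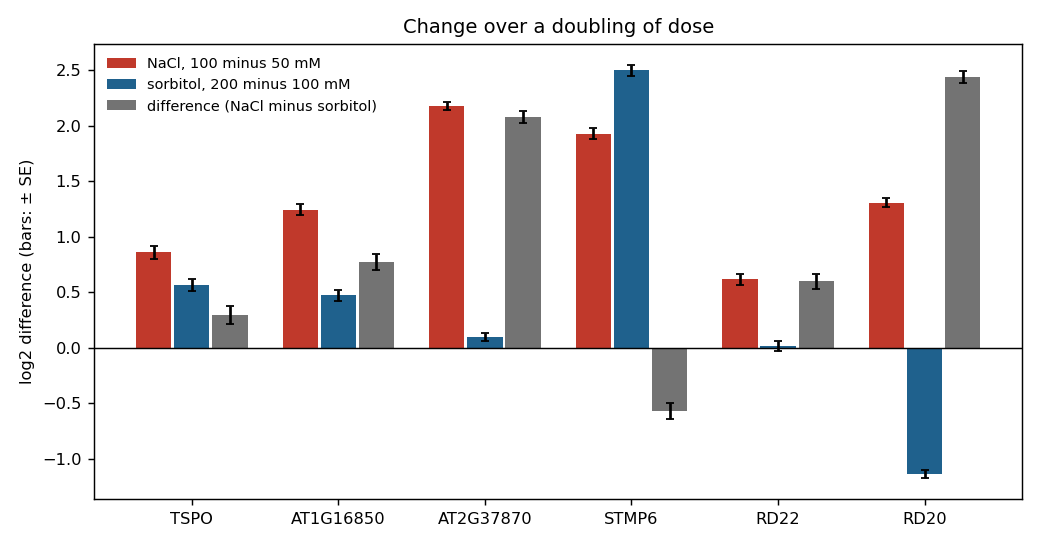
Log2 difference of each gene between NaCl 100 and 50 mM, between sorbitol 200 and 100 mM, and the difference of the 2 (y axis), with bars of ± 1 SE from the fit. NaCl bars are above 0 for all 6 genes, whereas the sorbitol bar is 2.50 for STMP6, 0.02 for RD22 and -1.14 for RD20.

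The dose responses to the agents were then compared with each other, as the NaCl difference minus the sorbitol difference. The sorbitol part uses signals that helped to choose several of the genes, so this test is not independent of the choice either. All 6 genes were called, 5 of them higher on NaCl and STMP6 lower, where 52.0% of all tested genes were called in either direction, 21.5% higher and 30.4% lower. RD20 had the largest value of the 6, 2.44 ± 0.05 (SE; limma, adjusted p = 2.95e-18), and ranked 114 of 21511 genes. AT2G37870 had 2.08 ± 0.05 (adjusted p = 8.46e-18), AT1G16850 0.77 ± 0.07 (adjusted p = 1.33e-08) and RD22 0.60 ± 0.07 (adjusted p = 2.61e-07). STMP6 had -0.57 ± 0.07 (limma, adjusted p = 1.2e-06), so it climbed more steeply on sorbitol. TSPO had 0.30 ± 0.08 (limma, adjusted p = 0.00255), and this call did not hold with normexp correction (0.05, adjusted p = 0.562), with slide as a random block (0.28, adjusted p = 0.0106), with slide as a fixed block (0.26, adjusted p = 0.0447) or with its other probe (0.17, adjusted p = 0.107). From the single arrays of each dose on slides A and D, which are part of the same fit, the difference was 2.33 for RD20, 2.11 for AT2G37870, 0.81 for AT1G16850, 0.68 for RD22, -0.47 for STMP6 and 0.23 for TSPO. The pattern of RD20, called higher over the NaCl range and lower over the sorbitol range, was shared by 1077 genes or 5.01% of those tested. That of STMP6, TSPO and AT1G16850, higher over both, was shared by 1559 genes or 7.25%, and that of AT2G37870 and RD22, higher over NaCl and not called over sorbitol, by 2077 genes or 9.66%. Over the full dose range, NaCl 125 minus 50 mM less sorbitol 250 minus 100 mM, all 6 genes were called in the same directions, where 65.4% of all tested genes were called. No slide held both NaCl 50 and 125 mM or both sorbitol 100 and 250 mM, so dose and slide cannot be told apart over the full range.

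**Figure D3:**
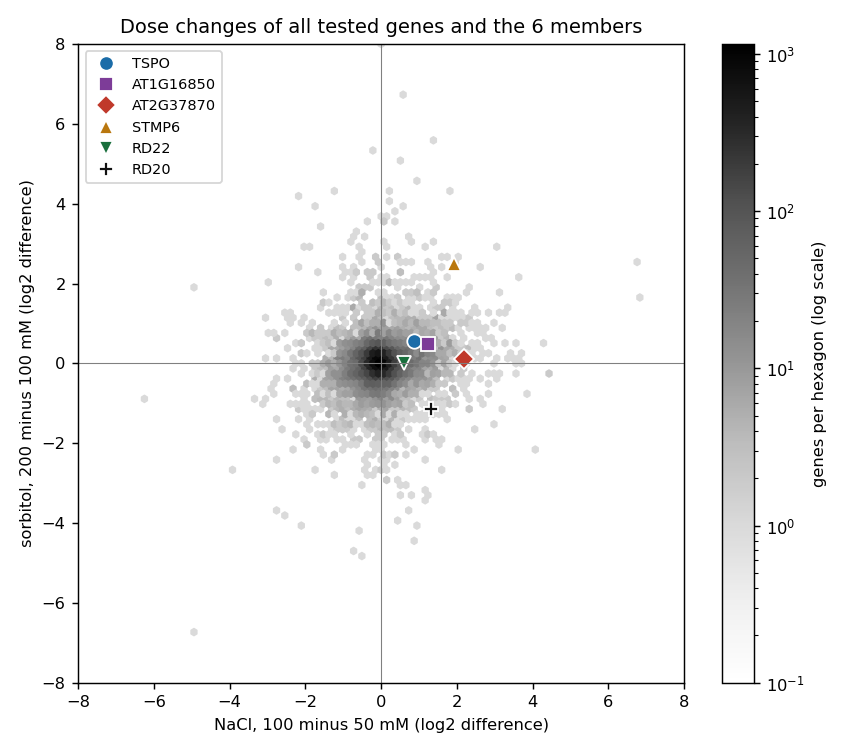
Log2 difference between NaCl 100 and 50 mM (x axis) and between sorbitol 200 and 100 mM (y axis) for 21511 genes, as grey hexagons shaded by gene number on a log scale, with the 6 genes marked. All 6 lie right of 0 on the x axis, STMP6 near 2.50 on the y axis and RD20 near -1.14.

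Single steps showed where along the range each gene changed. From 50 to 75 mM NaCl, 4 genes were called higher and 1 lower, where 12.8% of all genes were called higher and 15.1% lower. AT2G37870 led with 0.91 ± 0.04 (SE, log2), RD22 differed by 0.04 ± 0.05 (limma, adjusted p = 0.579), and TSPO fell by 0.65 ± 0.06 (adjusted p = 6.69e-09). From 75 to 100 mM NaCl all 6 were called higher (17.3% of all genes), by between 0.58 for RD22 and 1.51 for TSPO. From 100 to 125 mM NaCl, 5 were called higher (18.9% of all genes) and 1 lower (28.4%), with TSPO at 1.32 ± 0.06 and AT2G37870 at 0.84 ± 0.04. RD20 fell by 0.14 ± 0.04 in that step (limma, adjusted p = 0.00407), which did not pass without NaCl 100 mM replicate 2 (-0.11, adjusted p = 0.029), without NaCl 125 mM replicate 1 (-0.13, adjusted p = 0.0166), without NaCl 125 mM replicate 2 (-0.14, adjusted p = 0.0141) or with slide as a random block (-0.15, adjusted p = 0.0308). With slide as a random block the step of RD22 (0.23 ± 0.05, adjusted p = 0.000581) did not pass either (0.22, adjusted p = 0.0142). No slide held both NaCl 100 and 125 mM, and in this step dose and slide cannot be told apart.

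On sorbitol the steps were called less evenly. Several genes were chosen on their rise on sorbitol, which can favour 1 dose, so these step tests are not independent of the choice. From 100 to 150 mM, 3 genes were called higher (25.4% of all genes) and 2 lower (18.5%), with STMP6 at 1.86 ± 0.05 (SE, log2), and falls of 0.44 ± 0.04 for RD20 and 0.39 ± 0.04 for AT2G37870. RD22 differed by -0.14 ± 0.05 in this step (limma, adjusted p = 0.0226), and passed without sorbitol 150 mM replicate 3 (-0.19, adjusted p = 0.00242) and with its other probe (-0.26, adjusted p = 1e-05). From 150 to 200 mM, 2 were called higher (17.2% of all genes) and 1 lower (19.4%). STMP6 rose by 0.64 ± 0.05 and AT2G37870 by 0.49 ± 0.04, and RD20 fell by 0.69 ± 0.04. RD22 differed by 0.15 ± 0.05 (limma, adjusted p = 0.0136), and passed with the replicate number as a block (adjusted p = 0.00969) and with slide as a random block (adjusted p = 0.00729). It also passed without sorbitol 150 mM replicate 3 (0.21, adjusted p = 0.00138) and without sorbitol 200 mM replicate 1 (0.19, adjusted p = 0.00456). From 200 to 250 mM only TSPO was called, 1.11 ± 0.06 higher (27.0% of all genes; limma, adjusted p = 4.5e-13). TSPO had its greatest rise over the control at 250 mM (log2 6.98), so this step may use a value that helped its choice. AT1G16850 differed by 0.16 ± 0.05 (adjusted p = 0.0103), STMP6 by 0.15 ± 0.05 (adjusted p = 0.0161), and RD20 by 0.03 ± 0.04 (adjusted p = 0.475). Sorbitol 250 mM was alone on its slide, and in this last step too dose and slide cannot be told apart.

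At matched osmolarity NaCl and sorbitol gave unlike levels, and the gap changed with dose. The differences are NaCl minus sorbitol on the log2 scale, and carry no test because the sorbitol values helped to choose the genes. No iso-osmolar pair shared a slide, so agent and slide cannot be told apart in them. TSPO had the widest gap at 3 of the 4 pairs, -2.41, -3.53, -2.11 and -1.90 from the lowest pair to the highest. AT2G37870 had -3.63, -2.33, -1.56 and -0.64, so that its level on NaCl came closer to that on sorbitol at each dose. STMP6 had -0.26, -1.52, -0.83 and -0.62, and its lowest pair had -0.13 with normexp correction and -0.43 under the 75th percentile scaling. The arrays of each pair did not overlap for TSPO, AT2G37870, STMP6 and RD20. AT1G16850 had -0.78, -0.75, -0.01 and 0.17, and its arrays overlapped in the third pair. RD22 had -0.84, -0.66, -0.24 and -0.04, and its arrays overlapped in the highest pair. RD20 was lower on NaCl in both lower pairs, with -1.83 and -1.07, and higher on NaCl in both upper pairs, with 0.61 and 0.44.

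**Figure D4:**
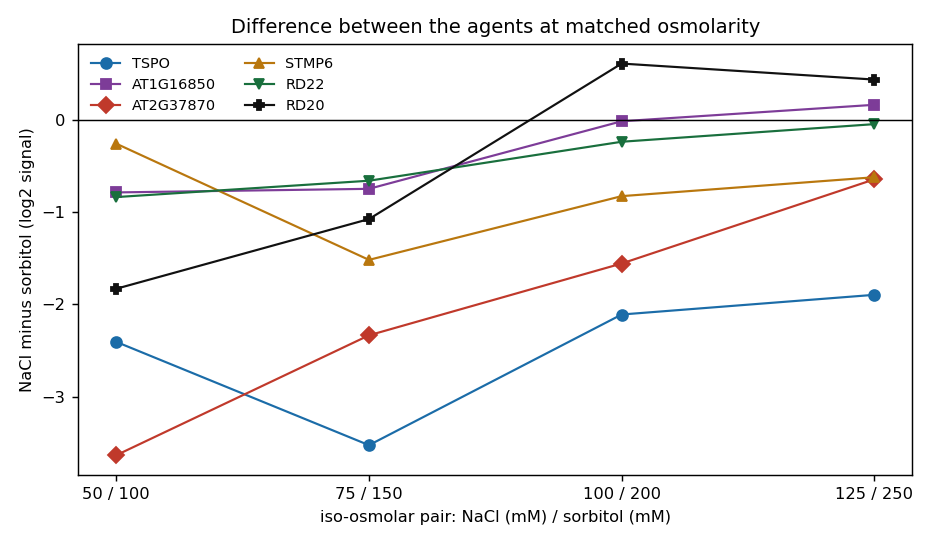
NaCl minus sorbitol, as the difference of group means of log2 signal (y axis), for the 4 iso-osmolar pairs (x axis, mM NaCl / mM sorbitol), 1 line a gene. TSPO stays below 0 at all 4 pairs, from -3.53 to -1.90, and RD20 runs from -1.83 at the lowest pair to 0.61 at the third.

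How the genes moved with each other depended on the agent. Over the 4 NaCl group means every pair among the 6 had a Pearson correlation of log2 signal of at least 0.767. Over the 4 sorbitol group means RD20 ran against STMP6 (-0.941), AT1G16850 (-0.926) and TSPO (-0.752), while STMP6 and AT1G16850 (0.979) and AT2G37870 and RD22 (0.949) ran together. These are descriptions over 4 points whose groups share slides. Over all 9 group means, which share libraries and one contrast between treated and control, the genes most like TSPO among 21510 were AT5G15500 (r = 0.99), AT5G01300 (0.988) and LTI65 (0.985). Those most like AT1G16850 were AT1G66780 (0.991), EDA12 (0.989) and AT4G04745 (0.982). AT2G37870 was most like AT4G23670 (0.987), RD22 (0.986) and AT4G33550 (0.982). STMP6 was most like EXPA20 (0.988), an expansin, AT3G13950 (0.972) and AT4G21620 (0.965). RD22 was most like AT3G28270 (0.991), AT2G37870 (0.986) and AT2G47780 (0.985), the last of which is the gene next to TSPO in RefSeq order. RD20 was most like AT1G70720 (0.974), CKB4 (0.973), a casein kinase II subunit, and CORI3 (0.971), a gene induced by coronatine and jasmonic acid.

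The other genes of the ABA pathway were counted in lists drawn up by role, with each dose average set against the control. Background calls were 61.8% of all genes on mean sorbitol, with a median log2 difference of 0.01, and 60.0% on mean NaCl, with a median of 0.00. By direction, 32.7% of all genes were called higher and 29.1% lower on mean sorbitol. On mean NaCl these shares were 30.4% and 29.6%. Of 9 ABA receptors, 8 fell and none rose on sorbitol (median -0.72), and 8 fell and 1 rose on NaCl (median -0.31). PYL6 fell by 3.14 and PYL5 by 0.95 on mean sorbitol (log2; limma, adjusted p = 1.06e-26 and 2.6e-18). Of 9 clade A PP2Cs, the phosphatases that the receptors block, 8 rose and none fell on sorbitol (median 0.72) and on NaCl (median 0.47). With normexp correction the median was 0.32 on sorbitol, and 7 rose on NaCl (median 0.34). HAI1 rose by 4.33 on mean sorbitol (limma, adjusted p = 1.08e-21), and HAI2, whose probe was not well above background in the control, was at least 10.6-fold higher at sorbitol 250 mM than in the control (limma, adjusted p = 2.89e-10). This bound sets the group mean against the higher, on each control array, of the probe's own signal and the lowest signal well above background.

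Of 10 kinases and transcription factors, 7 rose and 1 fell on sorbitol (median 0.41), and 4 rose and 1 fell on NaCl (median 0.13). ABI5, a transcription factor of seed ABA responses, rose by 1.37 on mean sorbitol, MYB2, one of the factors known to act on RD22, was at least 1.46-fold higher at sorbitol 250 mM than in the control, where it was not well above background, and the kinase SnRK2.3 fell by 0.07. MYB2 is counted among the genes that rose on both agents, so those counts include a gene under background in the control. Of 9 genes of ABA synthesis and breakdown, 4 rose and 2 fell on sorbitol (median 0.11), and 5 rose and 1 fell on NaCl (median 0.20). On mean sorbitol the ABA hydroxylase CYP707A1 rose by 0.66, the synthesis enzyme AAO3 rose by 0.30 and the synthesis enzyme ABA1 fell by 0.19. A second hydroxylase, CYP707A2, fell by 0.61 on mean sorbitol and had a mean NaCl difference of 1.04. Of 13 other drought genes, 8 rose and 1 fell on sorbitol (median 0.52), and 8 rose and 2 fell on NaCl (median 0.20), while under the 75th percentile scaling 8 rose and 4 fell on each agent. The lipid transfer protein LTP3 rose by 3.69 on mean sorbitol, and the transcription factor RD26 fell by 0.41. LTP4 was called higher as well, but was well above background on only 1 of 3 control arrays, and no size is given for it. Of 13 plasma membrane aquaporins, 6 rose and 2 fell on sorbitol (median 0.05), and 4 rose and 6 fell on NaCl (median -0.06). With 61.8% of all genes called on mean sorbitol and 60.0% on mean NaCl, nothing is read from these aquaporin counts. PIP2;5 rose by 0.48 and PIP2;6 by 0.34 on mean sorbitol, while PIP1;5 fell by 0.55 and PIP2;1 by 0.11. PIP2;7, the aquaporin that TSPO binds, differed by -0.03 on mean sorbitol (limma, adjusted p = 0.548) and 0.10 on mean NaCl (adjusted p = 0.0297). When each array was scaled by its 75th percentile instead, PIP2;7 was -0.20 on mean NaCl (adjusted p = 0.00711), and 4 aquaporins rose and 4 fell on sorbitol and 2 rose and 7 fell on NaCl.

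Seed markers moved with some of the same groups. The summed signal of 13 genes of seed storage proteins and oil bodies lay between 136 and 168 on the control arrays. On NaCl it lay between 239 and 257 at 50 mM, 261 and 291 at 75 mM, 304 and 336 at 100 mM and 3169 and 3293 at 125 mM, and on sorbitol between 237 and 342 at 100 mM, 319 and 428 at 150 mM, 3850.3 and 4183 at 200 mM and 1529 and 1569.9 at 250 mM. The number of the 13 markers well above background was 0 to 2 on the control arrays, 2 to 8 on the NaCl arrays and 3 to 12 on the sorbitol arrays. No counts of calls are given for these markers, because several passed the filter on dim probes only through the groups where they were high: CRU3, a cruciferin, and SESA2, an albumin, were well above background on 3 of 27 arrays. CRU1, a cruciferin storage protein, was at least 92.4-fold higher at sorbitol 200 mM than in the control. PER1, a seed peroxiredoxin, was at least 24.8-fold higher at sorbitol 250 mM. Each bound is at the sorbitol dose where the gene's mean was highest. Both genes had no control array well above background, so the bounds are given without a test. The levels of STMP6, TSPO and AT1G16850 were higher, and that of RD20 lower, at sorbitol 200 than at 100 mM, where the summed seed signal was higher too. It was also higher at NaCl 100 than at 50 mM, with no overlap, at NaCl 125 than at 100 mM, and at sorbitol 250 than at 100 mM. The part of the seed markers in the results of the 6 genes over these steps, and over the full dose range, was not tested. The shoot markers, 13 genes of Rubisco small subunits and light-harvesting proteins, were well above background on every array, and 2 fell and none rose on each agent, LHCB2.1 by 0.89 and LHCB6 by 0.14 on mean sorbitol. Scaled by the 75th percentile of each array, all 13 were called lower on both agents, with a median of -0.49 on mean sorbitol and -0.61 on mean NaCl. All 11 root markers were well above background on every array, and 8 fell and 1 rose on sorbitol and 9 fell on NaCl. For the shoot and root counts, 29.1% of all tested genes were called lower and 32.7% higher on mean sorbitol. On mean NaCl 29.6% were called lower and 30.4% higher. The endodermal genes CASP4 and CASP2 fell by 0.70 and 0.63 on mean sorbitol, and the beta-glucosidase PYK10 rose by 0.14, a direction that turned to -0.16 under the 75th percentile scaling. The part of the shoot and root markers in the results of the 6 genes was not tested.

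**Figure D5:**
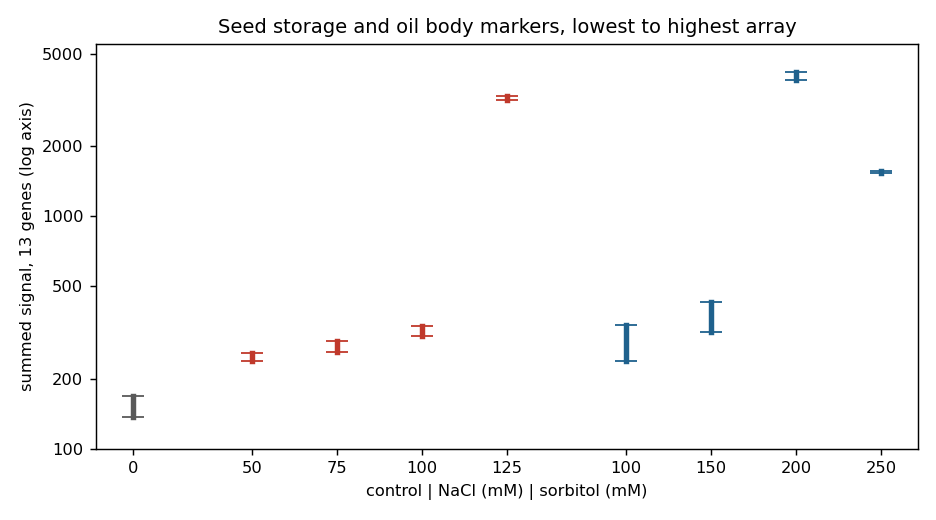
Summed normalised signal of 13 seed storage and oil body markers (y axis, log scale) in each group (x axis, control, NaCl and sorbitol doses in mM), drawn as the span from the lowest to the highest of 3 arrays. NaCl 125 mM (3169 to 3293), sorbitol 200 mM (3850.3 to 4183) and sorbitol 250 mM (1529 to 1569.9) stand above all other groups, which stay at or under 428.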

How the data were processed

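RNA of whole seedlings was labelled by the submitters with Cy3 and hybridised to Agilent arrays, and spots were read with Agilent Feature Extraction 10.7. The authors deposited the intensity of each spot (processed signal, median signal and background) and other values, the 0 or 1 flags for spots well above background, saturated or outlying. A table of intensity values that they deposited for the whole series matched the quantile-normalised processed signal (largest difference 4.8e-08 percent). Probe sequences were not used here.

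The processed signals of 43803 non-control spots were quantile normalised and taken to log2, and 530 outlier spot values were masked. Spots were paired with genes through their transcript accession and RefSeq (34369 of 36226 spots with an accession), which gave 25383 genes, each taken from its probe with the highest mean. Genes well above background on all 3 arrays of a group were tested. The 6 genes and the lists were chosen with earlier results of these data known. STMP6 is the name in the study's text, and the array's locus is AT1G65500.

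A model with 9 group means was fitted to the 27 arrays in limma 3.58.1, R 4.3.3 (18 residual degrees of freedom, prior 1.65), with two-sided p-values adjusted by Benjamini-Hochberg over all tested genes in each comparison and a call at 0.01, the threshold in the study's methods. Python 3.11.15 drew the plots. On simulated data with independent noise for each array and no slide effect, the fit was checked for recovery of known changes. That check cannot show what shared slides do to the errors. With slide as a random block, the estimated correlation of arrays on a slide was 0.517. Genes named from a list are the 2 largest rises and 2 largest falls past 0.01 on mean sorbitol, plus PIP2;7, and for each member the 3 genes most alike over group means and its neighbours in rank. Replicate numbers were checked for pairing by the correlation, across genes, of deviations from group means. Between sorbitol 200 and 150 mM it was 0.496, 0.144 and 0.235 for replicates 1, 2 and 3, which also share slides. An alternative fit took the replicate number as a block over all 27 arrays, which does not pair those samples on their own.

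Alternatives were scaling by the 75th percentile of each array, normexp correction of the median signal with an offset of 50, the deposited table, the mean over a gene's probes, dim probes kept, a looser threshold, each replicate left out, replicate and slide blocks and, added after the data were seen, the full dose range, the other probe of TSPO and RD22, and leaving out slide D. A planned search of promoters for motifs was not run.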

Additional observations from a re-analysis of the deposited data

Results flagged for a closer look

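For all 6 genes the test of the difference between the dose responses passed, as NaCl 100 minus 50 mM less sorbitol 200 minus 100 mM. The log2 value was 2.44 for RD20, 2.08 for AT2G37870, 0.77 for AT1G16850, 0.60 for RD22, 0.30 for TSPO and -0.57 for STMP6. Over the full dose range, NaCl 125 minus 50 mM less sorbitol 250 minus 100 mM, the values were 2.27 for RD20, 2.99 for AT2G37870, 0.95 for AT1G16850, 0.79 for RD22, 0.51 for TSPO and -0.36 for STMP6 (limma, largest adjusted p = 0.000172, that of STMP6). Both comparisons use sorbitol signals that helped to choose several of the genes, so they are not independent of the choice. In the full range no slide held both NaCl doses or both sorbitol doses, so dose and slide cannot be told apart there.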

How the results depend on the processing

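All 6 genes were called higher from 50 to 100 mM NaCl in every alternative run. Some genes of the other lists changed sign with the scaling or background correction. For example, the mean sorbitol rise of PYK10, 0.14, was -0.16 under the 75th percentile, and the mean NaCl rise of PIP1;2, 0.13 (adjusted p = 0.00878), was -0.19 (adjusted p = 0.0249). Of the 6 genes, the values that changed sign were these. The sorbitol 200 minus 100 mM difference of RD22, 0.02, was -0.0141 with normexp, -0.0761 with the mean of all probes (adjusted p = 0.0354), -0.0026 with slide as a random block, -0.0163 with slide as a fixed block and -0.17 with the other probe (adjusted p = 0.000809), and lay between -0.0106 and 0.0566 with 1 replicate left out. RD20, sorbitol 250 minus 200 mM, was -0.0045 under the 75th percentile and -0.0086 with normexp. RD22 had -0.0096 for NaCl 75 minus 50 mM under the 75th percentile. For sorbitol 250 minus 200 mM, RD22 had -0.0034 without slide D, and between -0.0034 and 0.0655 with 1 replicate left out. NaCl 125 minus sorbitol 250 mM of RD22 was 0.0877 with the mean of all probes and 0.22 with the other probe. AT1G16850, NaCl 100 minus sorbitol 200 mM, was 0.0054 with slide as a random block and lay between -0.0566 and 0.0205 with 1 replicate left out. The cause of these turns was not tested.

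Every group holds replicates 1 to 3, so the replicate number as a block can change the error of a dose difference but not its value. With this block, for AT1G16850 sorbitol 250 minus 200 mM passed (0.16, adjusted p = 0.00836). Apart from that and RD22 at sorbitol 200 minus 150 mM (0.15, adjusted p = 0.00969) it changed no other call. For the main dose contrasts, the samples of replicate 1 also shared a slide. The correlations for replicates 1, 2 and 3 were 0.1128, 0.0851 and 0.1322 for NaCl, and 0.1320, 0.0602 and 0.1543 for sorbitol. These values lie on both sides of 0.1 and do not settle whether the samples were paired. For sorbitol 250 minus 200 mM AT1G16850 also passed with the 75th percentile (0.18, adjusted p = 0.00498) and in 6 of 27 fits with 1 replicate left out, those without NaCl 125 mM replicate 2, sorbitol 100 mM replicate 2 or 3, sorbitol 150 mM replicate 1 or 2, or sorbitol 200 mM replicate 3 (adjusted p between 0.00297 and 0.00979). STMP6 in the same step passed with normexp (0.13, adjusted p = 0.00839) and in 3 of 27, those without control replicate 1 (adjusted p = 0.00533), sorbitol 150 mM replicate 1 (0.00803) or sorbitol 200 mM replicate 2 (0.00474). For NaCl 125 minus 100 mM, RD22 did not pass with the 75th percentile (0.16, adjusted p = 0.0465). With the mean of all probes RD22 passed for sorbitol 150 minus 100 mM (-0.20, adjusted p = 1.28e-05) and for 200 minus 150 mM (0.12, adjusted p = 0.00206).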
